A study of Bos taurus with 6 samples.

Results

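The miR-146 family of bovine cumulus cells was examined as the rows of the deposited count table named bta-miR-146a or bta-miR-146b. The rule found 2 entries among 1055, 1 for each miRNA, and neither carried an arm suffix. Cumulus cells are the somatic partners of the oocyte, with which they form the cumulus-oocyte complex (COC), and small pieces of cumulus were taken from COCs after in vitro maturation with follicle stimulating hormone and serum. Each oocyte was then fertilized and cultured individually, and the pieces were pooled by the fate of the oocyte. Small RNA was sequenced in 3 not-cleaved pools, whose oocytes stayed uncleaved after sperm were added (Samples A, B and C), and in 3 blastocyst pools, whose oocytes reached that stage (Samples D, E and F). The comparison asks whether cumulus miRNAs differ with the quality of the enclosed oocyte, that is, its fertilizability and developmental competence. The study states that this contrast cannot tell fertilizable oocytes from those that were not. All pools came from slaughterhouse ovaries, each mixed the cumulus of several COCs, and no treatment distinguished the groups. No source used here says whether pools of a group were made on separate days, and p-values cover only the spread between these pools.

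miR-146a and miR-146b are known as feedback regulators of inflammation. In human and mouse cells, signals from Toll-like receptors (TLR) and interleukin-1 act through NF-kB to raise miR-146a, which represses the adaptor TRAF6 and the kinase IRAK1 and so dampens the same signal. The maturing COC uses many genes of inflammation, among them those for prostaglandin synthesis and for the matrix in which the cumulus expands. The family has the same seed, the part of a miRNA that selects its targets, and the mature sequences are nearly the same. Reads could therefore be assigned to the wrong member where a mismatch was allowed, and the sources used here do not describe the assignment. The sum over the family does not depend on that assignment and was tested as well.

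The members lie at separate loci. In the RefSeq annotation of ARS-UCD2.0, MIR146A is on chromosome 7 with PTTG1 as the nearest protein-coding gene, and MIR146B is on chromosome 26 with C26H10orf95 and CUEDC2 as the nearest. The annotated precursors are 99 and 106 bases long. Neither lies within 10 kb of another annotated miRNA gene, and neither overlaps an annotated gene. Positions are not printed, because the sources used here name no genome build for the counts.

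Library totals ran from 2776256 to 8139237 counts. The 257 entries averaging 50 counts or more were compared on log2 CPM scaled by TMM factors, as in the tests. Sample B had 8 entries more than 3 log2 units above the median of the other libraries. Sample E had 4 above and 14 below, Sample F had 2 below, and Samples A, C and D had 0. miR-146b was not among them. miR-146a averaged 24.8 counts and so was not in the compared set. Its own deviations ran from -1.07 (Sample F) to 1.04 (Sample A) log2 units. Levels are given as CPM, which are counts per M of the library total. Markers of granulosa and cumulus spanned a wide range. miR-202, a miRNA of the gonads, ran from 5968 to 8454 CPM, while miR-383 ran from 3.69 to 5.64 CPM and miR-424-5p from 3.43 to 13.9 CPM. Each of the 10 listed granulosa and cumulus miRNAs had an entry with counts in every library, as did miR-146a, while the miR-503-3p entry had 0 counts in Sample A.

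miR-146b was the abundant member. Samples A, B and C gave 514, 219 and 393 counts of it, and Samples D, E and F gave 596, 294 and 230. Relative to the library totals these counts were 65.4, 78.9 and 91.9 CPM in Samples A, B and C. They were 73.2, 82.8 and 61.8 CPM in Samples D, E and F. Sample C was the highest and Sample F the lowest, 1.49-fold apart, and the groups overlapped. Not-cleaved samples averaged 78.7 ± 13.3 CPM (SD, n = 3), and blastocyst samples averaged 72.6 ± 10.5 CPM (SD, n = 3).

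miR-146a, the member best known from immune cells, had low counts, from 7 in Sample F to 60 in Sample A. Samples A, B and C gave 60, 10 and 26 counts of it, and Samples D, E and F gave 34, 12 and 7. The levels were 7.63, 3.60 and 6.08 CPM in Samples A, B and C. They were 4.18, 3.38 and 1.88 CPM in Samples D, E and F. Samples A and C were above all 3 blastocyst samples, while Sample B lay below Sample D, so the groups overlapped. The Wilson 95% interval was 5.93 to 9.82 CPM in Sample A and 0.911 to 3.88 CPM in Sample F. That of Sample A lay above those of all 3 blastocyst samples and overlapped those of Samples B and C, and that of Sample F overlapped those of Samples B, D and E. The libraries carried no molecular identifiers to mark PCR copies, so these intervals cover counting error only. Not-cleaved samples averaged 5.77 ± 2.03 CPM (SD, n = 3), and blastocyst samples averaged 3.15 ± 1.17 CPM (SD, n = 3).

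**Figure D1:**
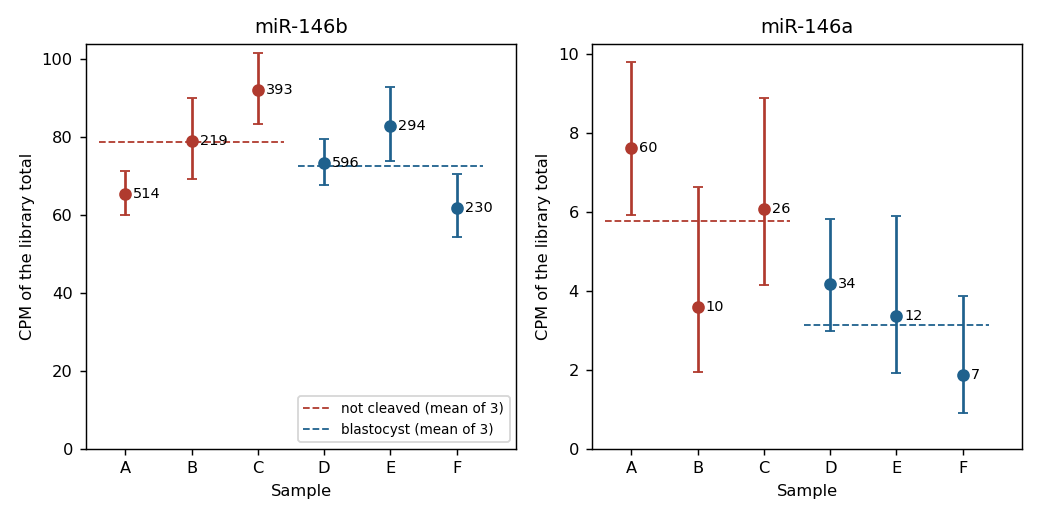
CPM of miR-146b (left) and miR-146a (right) in the 6 libraries, with not-cleaved samples in red and blastocyst samples in blue. Points are libraries labelled with their counts, bars are Wilson 95% intervals and dashed lines are group means of 3 libraries; miR-146b lay between 61.8 and 91.9 CPM and miR-146a between 1.88 and 7.63 CPM, with overlapping groups for both.

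In the order of mean level over the 6 libraries, with the entries of a mature miRNA summed, miR-146b was at place 127 and miR-146a at place 271 of the 551 mature miRNAs of miRBase with a count in any library. miR-146b (75.7 ± 11.2 CPM, SD, n = 6) stood between miR-19a (80.8 ± 12.6 CPM), a member of the miR-17-92 cluster, and miR-2332 (75.4 ± 108 CPM). miR-146a (4.46 ± 2.06 CPM, SD, n = 6) stood between miR-134 (4.51 ± 1.46 CPM) and miR-20b (4.37 ± 0.693 CPM). Each of these neighbours differed from the member by less than its spread. Within a library, miR-146b ranked from 118 to 137 and miR-146a from 232 to 315. Adapter ligation favours some sequences over others, so an order of levels between different miRNAs also carries that preference, whose part was not tested.

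miR-146b took most of the family in every library. Its part of the family counts was 89.5%, 95.6% and 93.8% in Samples A, B and C, and 94.6%, 96.1% and 97.0% in Samples D, E and F. The Wilson 95% interval was 86.8% to 91.8% in Sample A and 94.0% to 98.6% in Sample F. Sample A was the lowest, and its interval ended below those of Samples B, D, E and F. Counts of miR-146b were 8.57 times those of miR-146a in Sample A and 32.9 times in Sample F, and 15.1 times over all libraries together. The share averaged 93.0% ± 3.12 (SD, n = 3) in not-cleaved samples against 95.9% ± 1.23 (SD, n = 3) in blastocyst samples, 2.92 points apart. Sample B, at 95.6%, was above Sample D, so the groups overlapped (two-sided exact permutation test, p = 0.2, adjusted p = 0.4 over 4 such comparisons of shares, where the smallest p possible is 0.1). The difference was 1.20 points without Sample A and 4.24 points without Sample B.

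**Figure D2:**
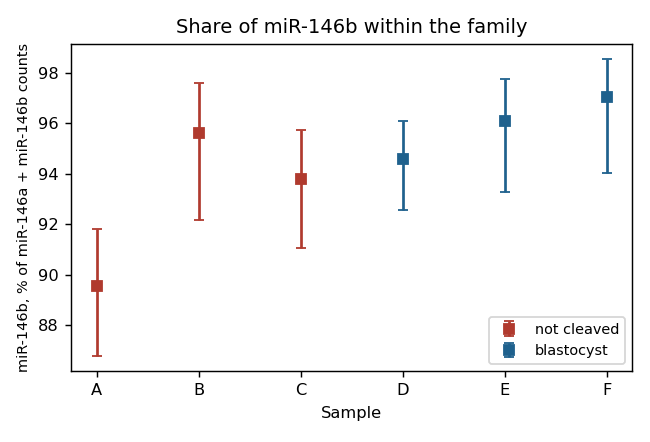
Counts of miR-146b as a percentage of the counts of both members in each library, with Wilson 95% intervals; not-cleaved samples are red, blastocyst samples are blue, and the vertical axis does not start at 0. The share ran from 89.5% in Sample A to 97.0% in Sample F, and the groups overlapped.

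Neither member nor their sum passed the test between the 2 fates. For miR-146b the log2 fold change of blastocyst over not-cleaved samples was -0.04 (SE 0.28, edgeR quasi-likelihood adjusted p = 0.996), with a 95% interval from -0.71 to 0.63. On the linear scale this interval runs from 0.612-fold to 1.55-fold. The sign of this value was not stable, since it was 0.20 without Sample C, 0.08 without Sample F, 0.34 with upper-quartile factors and 0.27 when scaled to miR-26a, miR-191 and let-7a-5p, the reference miRNAs of the study's qRT-PCR. These last scalings also moved the median of all tested entries, from -0.02 to 0.32 and 0.25, and relative to the median miR-146b was at -0.01, 0.02 and 0.01 with TMM, upper-quartile and reference scaling.

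For miR-146a the point estimate was lower in blastocyst samples, with a log2 fold change of -0.79 (SE 0.53, edgeR quasi-likelihood adjusted p = 0.993). Its 95% interval, from -2.05 to 0.47, covers 0.241-fold to 1.38-fold. It was the entry of rank 46 by unadjusted p (0.180) among 358. The estimate was negative with every library left out in turn, at -0.53 without Sample A, -0.53 without Sample F, -1.08 without Sample B and -1.10 without Sample D. It was -0.44 with upper-quartile factors and -0.45 when scaled to the reference miRNAs, and relative to the median of all entries it was -0.77 with TMM, -0.76 with upper-quartile factors and -0.71 with the reference miRNAs. On shares of counts the exact permutation test gave p = 0.2 (two-sided, adjusted p = 0.4 over the 4 comparisons of shares). Not-cleaved samples had 84.5 ± 12.6 CPM (SD, n = 3) of the family sum against 75.8 ± 11.3 CPM (SD, n = 3) for blastocyst samples, and the log2 fold change was -0.09 (SE 0.27, edgeR quasi-likelihood adjusted p = 0.988). The sign of the sum turned without Sample C (0.15), without Sample F (0.04) and with upper-quartile (0.31) or reference (0.23) scaling.

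Of all 358 tested entries, 0 (0%) passed an adjusted p of 0.05 with edgeR's quasi-likelihood test, and 10 (2.79%) had an unadjusted p under 0.05. DESeq2, edgeR's exact test and limma-voom also called 0. The groups did not overlap in CPM for 33 entries (9.22%), and both members of the family were outside that set. Among the 4 comparisons of shares, the family total gave an exact p of 0.5 and miR-146b of 0.6, each with an adjusted p of 0.6.

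**Figure D3:**
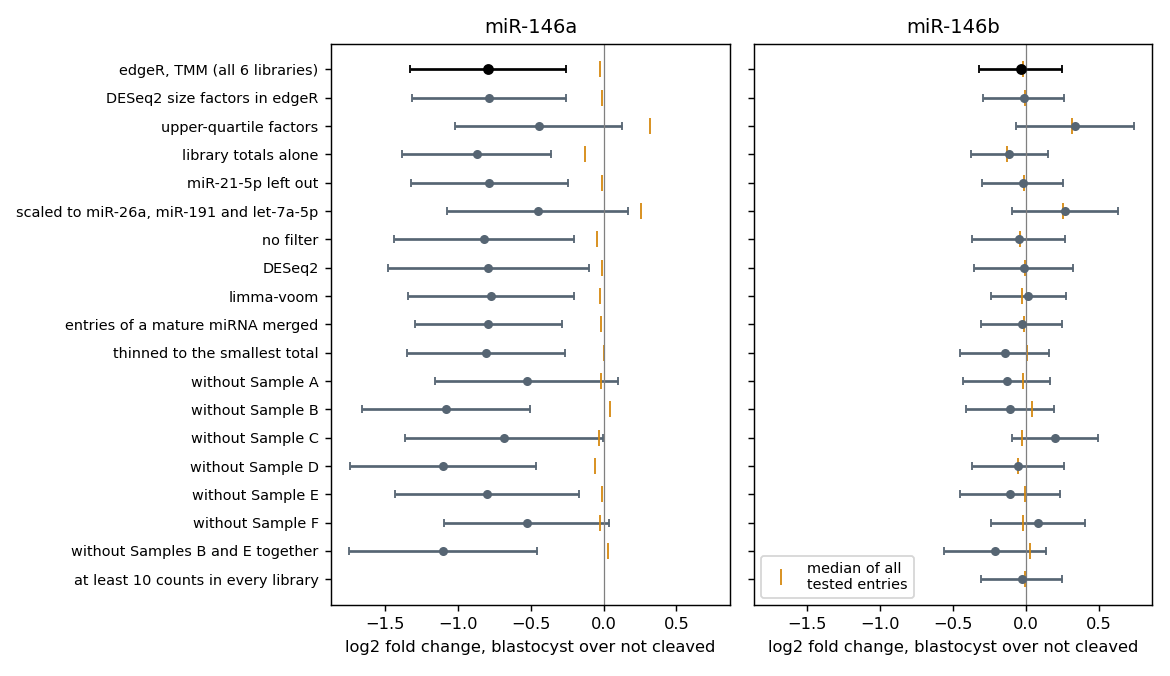
Log2 fold change of blastocyst over not-cleaved samples for miR-146a (left) and miR-146b (right) under each setting; points are estimates, bars are 1 SE and orange ticks the median of all tested entries, and edgeR's exact test, which gives no SE, is not drawn. Estimates for miR-146a ran from -1.10 to -0.44, and those for miR-146b lay on both sides of 0, above it with upper-quartile or reference scaling, with limma-voom and without Sample C or F; miR-146a has no value where at least 10 counts were required in every library.

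The members differed in how evenly they were expressed over the 6 libraries. On CPM of the library totals, miR-146b had a coefficient of variation (CV) of 14.8%, where counting alone would give 5.59%. Of 69 other tested entries within 2-fold of its mean level, 60 had a larger CV and 9 a smaller one, and their median was 23.2%. With TMM factors miR-146b had a wider spread, at 76.1 ± 14.8 CPM against 75.7 ± 11.2 CPM on library totals (SD, n = 6). Entries were ranked by CV on library totals only. miR-146a had a CV of 46.3%, where counting alone would give 21.8%. Among the 97 entries within 2-fold of its mean level, 54 had a larger CV and 43 a smaller one, with a median of 49.6%. Deviations from the median of the other libraries were taken on log2 CPM scaled by TMM factors, unlike the CPM above. In Samples B and E, where other entries stood far apart, miR-146b deviated by -0.23 and 0.31 log2 units, and miR-146a by -0.50 and -0.36. miR-146a deviated most in Samples A (1.04) and F (-1.07), and miR-146b deviated most in Sample C (0.60). The sign for miR-146b in Sample B depended on the scaling. On log2 CPM of the library totals it was 0.07 above its own mean there.

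**Figure D4:**
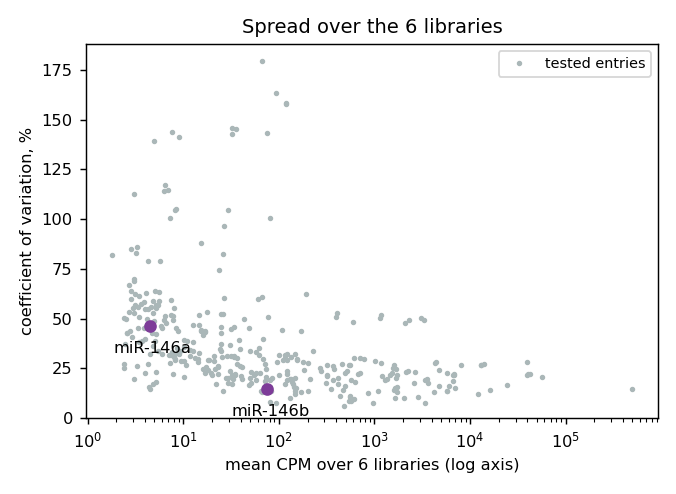
Coefficient of variation of CPM over the 6 libraries against mean CPM (log axis) for the 358 tested entries (grey), with the 2 members in purple. miR-146b, at 14.8%, lay low among entries of its level, and miR-146a, at 46.3%, lay near the middle of its own.

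Profiles over the libraries were compared as the root-mean-square difference between log2 CPM, each centred on its own mean over the 6 libraries. The profile of miR-146a was 0.55 log2 units from that of miR-146b, and 200 of the 256 other entries averaging 50 counts or more were closer to miR-146b than miR-146a was. From the side of miR-146a, whose profile lay farther from most entries (a median of 0.68 against 0.39 for miR-146b), 32 of the 257 entries were closer than miR-146b was. The closest to miR-146b were miR-2387 (0.15), an entry of miR-320a (0.18), a miRNA made without Drosha, and let-7i (0.18). The closest to miR-146a were miR-592 (0.24), miR-374a (0.39) and miR-330 (0.39). All profiles come from the same 6 libraries. miR-146a, averaging 24.8 counts, was itself below the bar of 50 counts set for the entries compared. With 7 to 60 counts a library its profile also carries counting error, whose part in these distances was not tested.

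Several miRNAs known from other cells to be induced by NF-kB or TLR signals were more abundant than either member. In a list of 13 such miRNAs, all 13 had an entry (16 entries with copies and arms). Of these 16 entries, 9 had a mean level above that of miR-146b, which was at place 127 of 551 mature miRNAs. The list shares miR-132, miR-212 and miR-224 with the granulosa and cumulus list, and whether these signals acted in the pools was not tested. miR-155, which acts beside miR-146a in the response of macrophages to TLR ligands, ran from 23975 to 49849 CPM and had 327 to 673 times the counts of miR-146b in a library. miR-21-5p ran from 397125 to 614733 CPM. miR-132 (549.4 to 945.8 CPM) and miR-212 (294.7 to 542.9 CPM), a gonadotropin-responsive pair in granulosa cells, also lay above the whole range of miR-146b. miR-147, a miRNA induced by TLR in mouse macrophages, was lower than miR-146b, at 27.8 to 49.5 CPM. miR-301a (1.69 to 7.26 CPM) overlapped the range of miR-146a, and miR-187 reached at most 4 counts in a library.

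**Figure D5:**
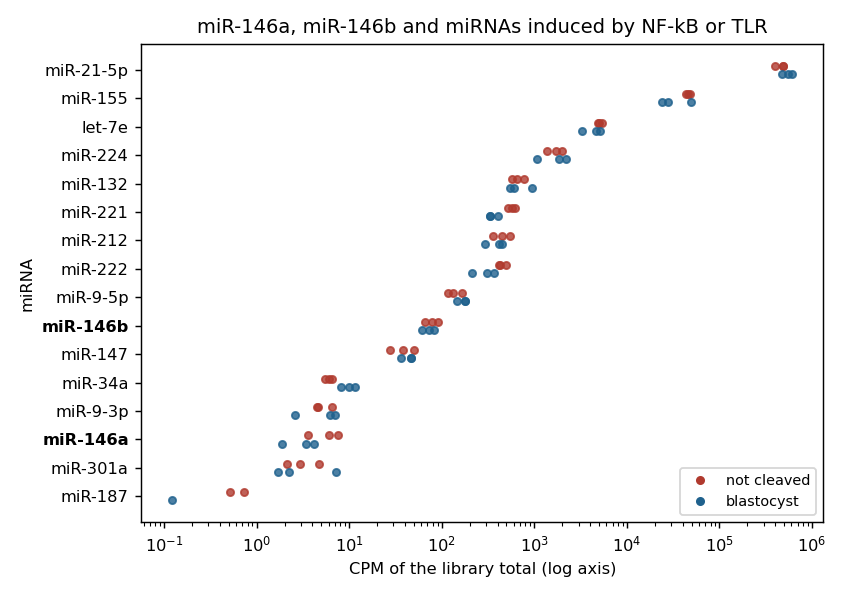
CPM (log axis) in each library of miR-146a, miR-146b and the miRNAs of the list induced by NF-kB or TLR, with entries of a mature miRNA summed and libraries without a count not drawn; not-cleaved samples are red and blastocyst samples blue. miR-146b sat between miR-9-5p and miR-147, and miR-146a between miR-9-3p and miR-301a.

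None of these lists had a member past the threshold. Of the 15 tested entries in the induced list, 0 passed, 9 had point estimates above 0 and 6 below, with a median log2 fold change of 0.18 beside -0.02 for all tested entries. miR-221, a repressor of the cell cycle inhibitor p27, had an estimate of -0.59 (SE 0.18, edgeR quasi-likelihood adjusted p = 0.993), with 522.6, 622.4 and 566.9 CPM in Samples A, B and C and 328.8, 407.2 and 330.3 CPM in Samples D, E and F. Its groups did not overlap, nor did those of miR-222, its cluster partner, and of miR-34a, a p53-responsive miRNA, whose estimate was 0.80 (SE 0.37). These 3 entries of 15 stand beside the 9.22% found over all tested entries. The study also measured miR-222 by qRT-PCR in cumulus of individual COCs. It reported high variability within each group, with similar variation for competent and incompetent COCs. In a list of 15 miRNAs reported to target components of the NF-kB pathway, 14 had an entry and 20 entries were tested. Of these, 0 passed, 12 had estimates above 0 and 8 below, the median was 0.06, and for none did the groups separate. In that list miR-125a (3641 to 5028 CPM) and miR-125b were above miR-146b, and miR-10a (18.2 to 50.3 CPM) was between the members.

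Since miR-146a is abundant in leukocytes, miRNAs of blood cells were read beside it. miR-223, of myeloid cells, and miR-144, of erythroid cells, were at 0 in all 6 libraries, and a count of 0 allows up to 3 counts (0.369 to 1.08 CPM, depending on the library). miR-142-3p and miR-142-5p, which mark all leukocytes, had at most 5 and 3 counts, and miR-150, of lymphocytes, at most 2. In Sample A, where miR-146a was highest with 60 counts, miR-142-3p had 5 counts, miR-142-5p had 0 and miR-150 had 1. Of the other listed miRNAs, the erythroid miR-451 had at most 5 counts, in Sample D. miR-486, also erythroid, had 0, 10 and 9 counts in Samples A, B and C and 20, 5 and 0 in Samples D, E and F, and thus as many as miR-146a in Sample B. By far the most counts were of miR-342, with 1267, 802 and 963 counts in Samples A, B and C and 2856, 20 and 515 in Samples D, E and F. Sample E, with the lowest miR-342 (5.63 CPM), had 12 counts of miR-146a, or 3.38 CPM. Sample D, with the highest miR-342 (350.9 CPM) and a larger library, had 34 counts of miR-146a, or 4.18 CPM. A relation between miR-342 and miR-146a was not tested. The 8 entries of the list together ran from 161.9 to 293.9 CPM in not-cleaved and from 9.29 to 354.3 CPM in blastocyst samples. Most of this sum was miR-342, which alone ran from 161.1 to 288.9 CPM and from 5.63 to 350.9 CPM. Endothelial miR-126-3p and miR-126-5p together ran from 1.53 to 4.32 CPM in not-cleaved and from 0.983 to 3.10 CPM in blastocyst samples, and their part in the level of miR-146a was not tested. Of the smooth muscle and stroma list, miR-143 was at 14.0 to 25.6 CPM and miR-145 had at most 4 counts. Of the 6 entries in the oocyte and early embryo list, miR-371 had the most counts. It had 33, 1 and 0 counts in Samples A, B and C and 0, 29 and 8 in Samples D, E and F. These were more than those of miR-146a in Samples E and F and fewer in Samples A, B, C and D. miR-302b came next in that list, with at most 5 counts.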

How the data were processed

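The authors made small RNA libraries from cumulus pools with a NEBNext kit, sequenced them on an Illumina NextSeq instrument and assigned reads to miRBase names. They deposited unnormalized whole-number counts for each entry. The sources used here name no aligner, counter or genome build. The deposited group comparison (fold changes, p-values, FDR values and group means) and the deposited log2 values of the most variable miRNAs were not used. Groups come from the column names, whose letters are not in the sample labels.

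The tools were edgeR 4.0.16 in R 4.3.3, DESeq2 1.42.0 and limma 3.58.1 for alternatives, and matplotlib 3.10.9 for plots. filterByExpr by group kept 358 of 1055 entries, with 99.99% of all counts. TMM factors were used, edgeR's quasi-likelihood F test was run over these entries, and p-values were adjusted over all of them (Benjamini-Hochberg, 0.05). An SE is the size of the log2 fold change over the square root of F. Library totals differed 2.93-fold. For the sum, 1 entry replaced both members. Log2 CPM used a prior count of 2. Shares were compared by exact permutation tests of 3 libraries against 3. Pathway lists (2) and marker lists (5) were described by counts and medians without a list test.

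The members and lists were chosen with earlier results of these data known. Named beside the members could be the 3 entries of most similar profile, the neighbours in level, miR-21-5p, miR-155, the qRT-PCR references and list members. Gene names and neighbours came from the RefSeq gene table of ARS-UCD2.0, in which both members matched. Alternatives were other scalings, filters and tests, merged entries, thinned counts, other denominators and each library left out in turn. Leaving out Samples B and E together was chosen after seeing the data.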

Additional observations from a re-analysis of the deposited data

How the results depend on the processing

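The estimate for miR-146a kept its sign and its side of the threshold in all 18 alternatives, from -1.10 (without Sample D) to -0.53 (without Sample A) with a library left out and from -1.10 (without Samples B and E together) to -0.44 (upper-quartile factors) otherwise. It could not be tested where at least 10 counts were required in every library. Over all alternatives for both members and the sum, the adjusted p ran from 0.809 to 1, so that 0 of 56 were called. The sign of miR-146b turned in 5 of 19 alternatives: 0.34 with upper-quartile factors, 0.27 with reference scaling, 0.014 with limma-voom, and over the libraries left out in turn it ran from -0.13 to 0.20. The sign of the sum turned in 4 of 19, at 0.31 with upper-quartile factors and 0.23 with reference scaling, and it ran from -0.17 to 0.15 with a library left out. On shares of counts, blastocyst minus not-cleaved was -6.09 CPM for miR-146b and -8.72 CPM for the family. With a library left out and full library totals, these ran from -12.8 to 0.496 CPM and from -14.5 to -1.97 CPM. Once miR-21-5p was taken out of the totals of all 6 libraries, the differences were 17.1 and 13.4 CPM. The difference for miR-146a on full totals was -2.62 CPM (-3.71 to -1.69 with a library left out). That for the share of miR-146b in the family was 2.92 points (1.20 to 4.24). The cause of these turns was not tested, apart from the shift of the median of all entries given with the scalings. Depth limits miR-146a, with 7 to 60 counts a library. No paired analysis was possible because the groups share no replicate numbers in the labels.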
